A study of Mus musculus with 18 samples.

Results

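The genes described here are 49 DNA repair genes of the Fanconi, recombination and end-joining routes, with the kinases and the break-sensing complex that act beside them. They were given as a list of symbols, and all 49 were found among the 27997 genes of the table. By their known roles they were divided into 13 genes of the Fanconi route, 18 of homologous recombination, 10 of end joining, 7 of break sensing and signalling, and Msh6, which recognises mismatches. The question asked of them was which repair routes fell, and which did not, when cultured neural stem cells (NSCs) left the cell cycle and became astrocytes.

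Adherent cultures of NSCs and the astrocytes made from them were sequenced in 3 lines of mouse cells with 3 libraries per line and fate, 18 in all. Both DNGR-1-traced lines came from spinal cord neurospheres of mice in which Cre, expressed from the locus of the dendritic cell receptor DNGR-1 (Clec9a), had switched on a ROSA reporter, and reporter-positive cells had been sorted. The tdTomato line had the genotype DNGR-1 +/- Tom+/- and the EYFP line DNGR-1 +/- EYFP+/-, so that both carried 1 disrupted copy of DNGR-1. The hippocampal line was DNGR-1+/+ and was made from mice with GlastCre, floxed Huwe and a ROSA EYFP reporter. NSCs were held for 4 days in medium with EGF, bFGF, heparin and laminin. Astrocytes were collected after 6 days, in medium in which BMP4 at 20 ng/ml had replaced the growth factors. The study's methods give a general age range in weeks for its mice, and no separate age is given there for the mice behind these lines. The 3 libraries of a group were consecutive passages of 1 line, not separate animals, so their spread is that between cultures of that line. Where a fit gave each group its own mean, the p-value measures this spread alone. In the fit over all lines, unequal changes of the lines add to it. Where traced and hippocampal cells of 1 fate were compared, any gap between the tdTomato and EYFP lines adds to it. A difference between origins cannot be told apart from a difference between lines, genotypes or reporters.

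Fanconi proteins act where the strands of DNA are cross-linked: a core complex with the conjugating enzyme encoded by Ube2t attaches ubiquitin to the products of Fancd2 and Fanci, and nucleases then cut the cross-link out. Homologous recombination copies a broken stretch from the sister chromatid, which exists only after replication, and is therefore used mainly in S and G2 phase. Classical end joining ligates broken ends directly and works in every phase, also in cells that no longer divide. Many genes of the former routes are known targets of E2F factors and carry cell cycle promoter elements.

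The deposited values are log2 normalised expression, and every level and change below is on that scale unless a percentage is given. A change is the astrocyte minus the NSC value, a gene is called where its adjusted p is under 0.05 (limma, with the Benjamini-Hochberg correction made over every gene tested), and coordinates follow GENCODE M21 (GRCm38). The labels were checked against markers. The 8 proliferation markers fell by a median of 5.32 on the log2 scale, Mki67 from 12.93 to 6.72, and 7 of 8 astrocyte markers rose, Gfap from 9.21 to 15.74. Of 8 NSC markers, however, 6 were higher in astrocytes and 2 lower, so that list did not mark the NSC cultures. Nes, an intermediate filament gene on it, fell from 14.09 to 10.97 in the traced lines but only from 13.86 to 13.64 in the hippocampal line. Huwe1 had a level of 13.28 in NSCs of the hippocampal line and 13.32 in those of the traced lines. Which of its exons are floxed is not given in the sources used here, so this level checks nothing.

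Markers of other cell types also moved with fate. All 3 ependymal markers tested rose (summed level 9.45 to 10.50 in NSC libraries and 11.01 to 12.32 in astrocyte libraries). Of 5 neuron markers tested, 3 rose and 1 fell (summed level 14.45 to 14.62 in NSCs and 13.91 to 14.34 in astrocytes). Of 5 oligodendrocyte lineage markers tested, 2 rose and 2 fell (15.24 to 15.55 against 14.03 to 14.95), while Mog was at -1.31 and -1.40. Of 3 mesenchymal and endothelial markers tested, 2 rose (5.11 to 5.42 against 7.04 to 9.41), while Pdgfrb was at -0.51 and -0.75. The 3 microglia and dendritic cell markers found were below the filter in every group, with Ptprc at -1.54 and -1.44. The part of other cell types in the repair gene changes was not tested. In such bulk libraries fewer cells of a type and less RNA per cell cannot be told apart.

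Most of the repair genes fell with astrocyte differentiation. Over all 18 libraries, 40 of the 49 were lower in astrocytes than in NSCs, where 39.8% of all 15448 genes tested were lower, and 2 were higher, where 42.1% of all genes were higher. At least 1 log2 unit was lost by 21 of the 40, where 10.1% of all genes were called lower by that much. Both rises, Rpa1 and Xrcc4, were under 1 log2 unit, where 14.6% of all genes were called higher by at least that. The median change of the 49 was -0.79, beside a median of 0.02 over all genes tested. In 35 genes every astrocyte library lay below every NSC library, where 23.2% of all genes did so, and in 2 every astrocyte library lay above, where 22.9% did.

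The routes did not fall alike. The median change was -1.56 over the 18 recombination genes, -0.72 over the 13 Fanconi genes, -0.53 over the 7 sensing and signalling genes and -0.28 over the 10 end-joining genes. Recombination had 16 members lower and 1 higher, the Fanconi route 10 lower, sensing and signalling 7 lower, and end joining 6 lower and 1 higher. Averaged over its members, recombination went from 8.91 ± 0.11 (SD, n = 9 libraries) in NSCs to 7.16 ± 0.06 (n = 9) in astrocytes. The 6 genes of classical end joining went from 8.71 ± 0.06 to 8.56 ± 0.06 (n = 9 each). These are descriptions of the routes, which were not tested against each other.

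**Figure D1:**
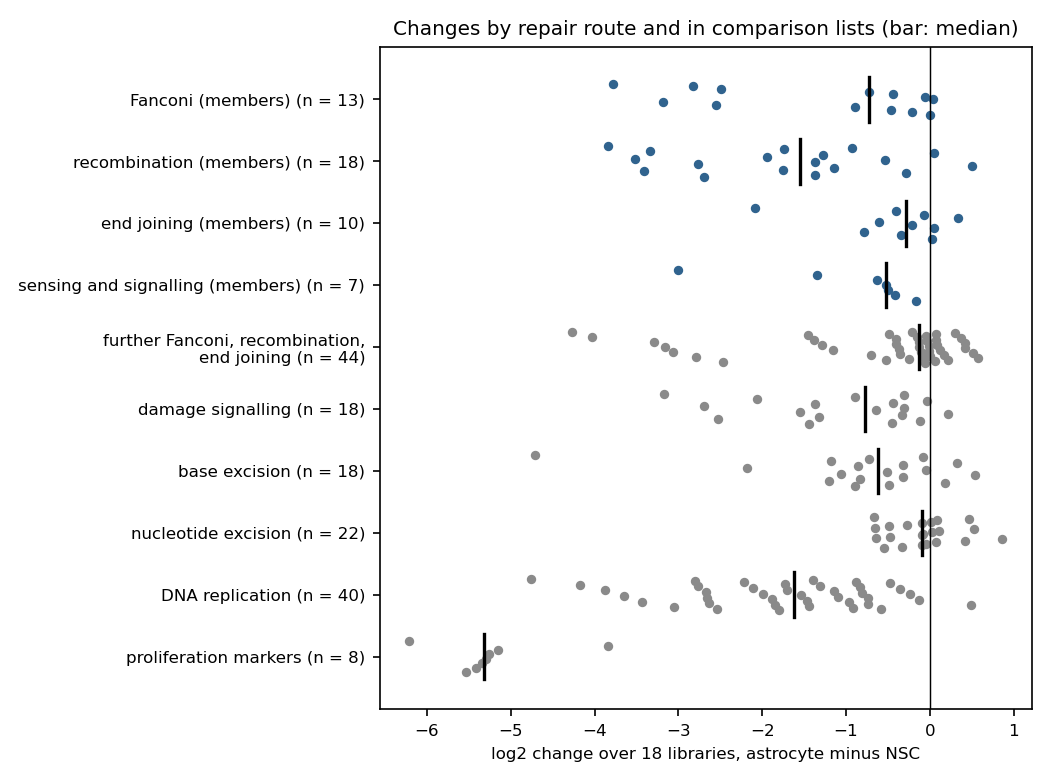
Log2 change from NSC to astrocyte over 18 libraries for each repair gene (blue, by route) and for the genes of 6 comparison lists (grey). Each point is 1 gene and the bar is the median, from -0.28 for end joining to -1.56 for recombination among the repair genes.

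In the Fanconi route, 10 of the 13 genes fell, 5 of them by at least 1 log2 unit: Fancd2, Ube2t, Fanca, Fancb and Fanci. Fancd2, on chromosome 6 from 113531682 to 113597017, encodes the protein that receives the ubiquitin and had the largest fall of the route. In NSCs it was at 9.38, 9.44 and 9.53 in the tdTomato line, 9.20, 9.28 and 9.24 in the EYFP line and 9.31, 9.16 and 9.27 in the hippocampal line. In the astrocytes of these lines it was at 5.76, 5.78 and 5.54, at 5.68, 5.11 and 5.67, and at 5.41, 5.27 and 5.58. Every astrocyte library lay more than 3 log2 units below every NSC library. The fitted change was -3.78 (standard error 0.07, adjusted p = 5.46e-18), which leaves 7.28% of the NSC level. Its partner Fanci, whose product is ubiquitinated with it, changed by -2.49 (standard error 0.05). Ube2t changed by -3.19, to 11.0% of the NSC level. Fanci shares 921 of its 5774 exon bases with Polg on the other strand, whose own change was -1.21, and whether reads were counted by strand is not stated.

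Of the 8 Fanc genes of the core complex, Fanca (-2.83) and Fancb (-2.55) fell to under 20% of the NSC level. Fanca shares 920 of its 8761 exon bases with Zfp276 on the other strand. Fancl, the ubiquitin ligase subunit, fell by 0.89 on the log2 scale, and Fancf, an adaptor, by 0.72. Fancc (-0.46) and Fancm (-0.44), the latter a translocase that brings the complex to DNA, fell less. No call was made for Fance (-0.05, 95% confidence interval -0.13 to 0.03) or Fancg (0.04, -0.07 to 0.14). Fancg, on chromosome 4 from 43002343 to 43010506, was at 8.06, 7.97 and 8.02 in tdTomato, 8.0, 7.90 and 8.23 in EYFP and 7.92, 7.97 and 8.06 in hippocampal NSCs. The astrocyte values were 7.96, 7.97 and 8.15, then 7.97, 8.01 and 8.16, and 8.08, 8.10 and 8.07. Both fates overlapped in the traced lines, and in the hippocampal line the astrocytes lay just above the NSCs. Among the nuclease genes, the scaffold Slx4 changed by -0.21 (adjusted p = 2.59e-06, limma), and Ercc1, which also serves nucleotide excision repair, by 0.01 (95% confidence interval -0.11 to 0.13).

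In homologous recombination, Bard1 and Brip1, whose products bind that of Brca1, fell furthest. Bard1, whose product forms a ubiquitin ligase with that of Brca1, had the largest change of all 49 genes, -3.84 (standard error 0.08, adjusted p = 1.84e-17, limma). It lies on chromosome 1 from 71027498 to 71103146. Its NSC values were 8.89, 8.90 and 8.79 in the tdTomato line, 8.71, 8.72 and 9.02 in the EYFP line and 8.81, 8.74 and 8.74 in the hippocampal line. Its astrocyte values were 5.34, 4.87 and 4.88, 4.88, 5.27 and 5.07, and 4.83, 4.60 and 4.97 in the same order. The groups were far apart in each line, and 6.96% of the NSC level remained. The helicase gene Brip1 changed by -3.52 and Brca1 by -2.76. Brca2, which loads the recombinase onto single-stranded DNA, fell by 1.14 on the log2 scale, to 45.3% of the NSC level. Palb2, the bridge between Brca1 and Brca2, fell by 0.93 on the log2 scale.

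The 5 paralogues of the recombinase all fell, by very different amounts. Rad51c (-1.75) and Rad51b (-1.74) kept about 30% of the NSC level (29.8% and 29.9%). Xrcc2 changed by -1.27, Xrcc3 by -0.53 and Rad51d by -0.29. Among the partners of the recombinase, Rad51ap1, which stimulates strand invasion, changed by -3.34, and the translocases Rad54b and Rad54l by -2.70 and -1.37. Rad54b shares 33.9% of its 75-base stretches with Fsbp, which lies within it on the same strand, so its value is uncertain. Rad52, an annealing factor, had no call over all lines (0.05, 95% confidence interval -0.09 to 0.18). In the hippocampal line, however, it was at 7.86 to 7.90 in NSCs and at 8.14 to 8.16 in astrocytes, while the fates overlapped in both traced lines. The resection nuclease Exo1 changed by -3.41 and the helicase Blm by -1.94.

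The subunits of the single-strand binding protein moved in opposite directions. Rpa2 changed by -1.37, to 38.7% of the NSC level, while Rpa1, the large subunit, rose by 0.50 (standard error 0.06, adjusted p = 9.04e-07, limma). Rpa1, on chromosome 11 from 75298166 to 75348324, was at 12.31, 12.34 and 12.41 in tdTomato, 12.12, 12.01 and 12.28 in EYFP and 12.24, 12.15 and 12.23 in hippocampal NSCs. In astrocytes it was at 12.83, 12.70 and 12.74, at 12.96, 12.91 and 12.99, and at 12.49, 12.52 and 12.48. Every astrocyte library lay above every NSC library, with the EYFP astrocytes highest and the hippocampal astrocytes lowest.

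**Figure D2:**
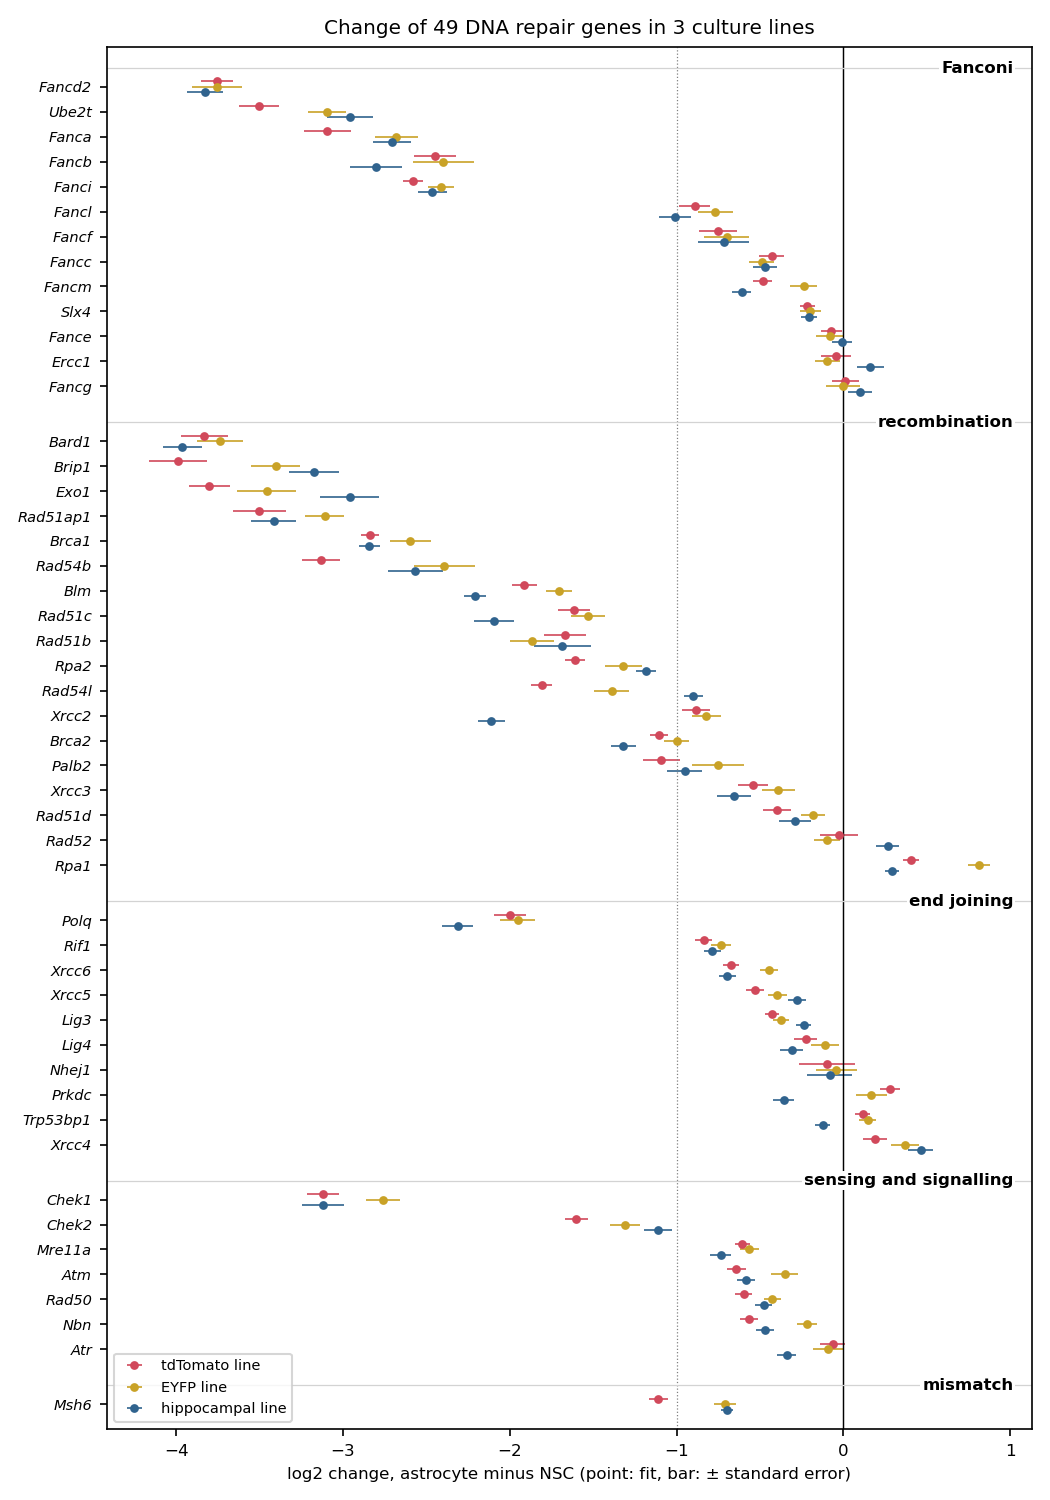
Log2 change from NSC to astrocyte for the 49 genes in each line, ordered by route and by the change over all lines, with the fitted value as a point and ± 1 standard error as a bar. The changes run from -3.99 (Brip1, tdTomato line) to 0.81 (Rpa1, EYFP line), and the dotted line marks a change of -1.

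Classical end joining changed little in comparison. The Ku subunit genes fell modestly, Xrcc6 by 0.61 and Xrcc5 by 0.40 on the log2 scale, and the ligase gene Lig4 by 0.22. Lig4 had no call in the EYFP line (-0.11, adjusted p = 0.269, limma) and lost its tdTomato call after median centring (-0.14, adjusted p = 0.0836) and without tdTomato NSC replicate 3 (-0.18, adjusted p = 0.0541). Nhej1, whose product stabilises the joined ends, changed by -0.07 (95% confidence interval -0.25 to 0.10) and had no call. Xrcc4, the partner of that ligase, rose by 0.34 (standard error 0.05, adjusted p = 4.29e-06, limma), to 127% of the NSC level. It lies on chromosome 13 from 89774027 to 90089608. Its NSC values were 8.11, 8.23 and 8.16 in tdTomato, 8.06, 8.09 and 7.99 in EYFP and 7.99, 7.84 and 7.86 in hippocampal cultures. Its astrocyte values were 8.34, 8.29 and 8.43, 8.28, 8.52 and 8.44, and 8.36, 8.37 and 8.34. The lowest astrocyte library was above the highest NSC library by only 0.05. In the tdTomato line alone the rise of Xrcc4 was 0.19 (adjusted p = 0.0353, limma). It lost this call without tdTomato NSC replicate 1 (0.16, adjusted p = 0.0969), without tdTomato NSC replicate 3 (0.19, adjusted p = 0.0764) and without tdTomato astrocyte replicate 3 (0.15, adjusted p = 0.123). The call was also lost in a fit with the replicate number as a block (0.19, adjusted p = 0.0695).

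Alternative end joining, which uses short stretches of matching sequence, contained the steepest fall of the end-joining genes. Polq, the polymerase of that route on chromosome 16 from 37011786 to 37095417, was at 8.19, 8.38 and 8.43 in tdTomato, 8.22, 8.11 and 8.20 in EYFP and 8.31, 8.30 and 8.38 in hippocampal NSCs. In astrocytes it was at 6.36, 6.36 and 6.28, at 6.23, 6.36 and 6.08, and at 5.95, 6.06 and 6.03. The fates did not overlap, and the hippocampal astrocytes lay lowest. The change was -2.09 (standard error 0.06, adjusted p = 2e-15, limma), to 23.5% of the NSC level. Lig3, a ligase that also seals excision repair nicks, changed by -0.35. Rif1, which protects ends from resection, fell by 0.79 on the log2 scale, and Trp53bp1, which recruits its product, had no call over all lines (0.05, 95% confidence interval -0.04 to 0.13).

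Over all lines, all 7 sensing and signalling genes were called lower, and the effector kinases fell most. Chek1, the kinase that answers stalled forks, lies on chromosome 9 from 36708482 to 36727065. It was at 8.92, 8.78 and 8.84 in tdTomato, 8.50, 8.44 and 8.64 in EYFP and 8.78, 8.46 and 8.62 in hippocampal NSCs. In astrocytes it was at 5.86, 5.65 and 5.67, at 5.75, 5.72 and 5.83, and at 5.59, 5.31 and 5.61. The astrocyte libraries of all lines lay together, about 3 log2 units below the NSCs. The change was -3.00 (standard error 0.07, adjusted p = 9.1e-17, limma). Chek2, the kinase downstream of Atm, changed by -1.34. The genes of the break-sensing complex fell over all lines, Mre11a by 0.64, Rad50 by 0.50 and Nbn by 0.42 on the log2 scale, and in the EYFP line their changes ran from -0.56 to -0.22. Atm fell by 0.53 on the log2 scale. Atr, the upstream kinase of Chek1 on chromosome 9 from 95857597 to 95951781, changed least.

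Atr was at 9.58, 9.41 and 9.47 in tdTomato, 9.42, 9.40 and 9.28 in EYFP and 9.39, 9.28 and 9.43 in hippocampal NSCs, and in astrocytes at 9.27, 9.49 and 9.51, at 9.12, 9.47 and 9.23, and at 9.07, 9.01 and 9.0. Both fates overlapped in the traced lines but not in the hippocampal line. The mean of Atr went from 9.49 to 9.42 in tdTomato, from 9.37 to 9.28 in EYFP and from 9.37 to 9.03 in hippocampal cultures. Neither traced line alone had a call for it. The change of Atr over all lines was -0.17 (adjusted p = 0.0109, limma), and it had no call after median centring (-0.12, adjusted p = 0.0842) or quantile normalization (-0.11, adjusted p = 0.0991). Msh6, the mismatch recognition gene on chromosome 17 from 87975062 to 87990892, was at 11.37, 11.35 and 11.42 in tdTomato, 11.01, 10.92 and 11.16 in EYFP and 11.23, 11.19 and 11.22 in hippocampal NSCs. In astrocytes Msh6 was at 10.27, 10.16 and 10.38, at 10.35, 10.26 and 10.36, and at 10.50, 10.54 and 10.49. No astrocyte library reached an NSC library. The change of Msh6 was -0.84 (standard error 0.06, adjusted p = 2.23e-10, limma).

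**Figure D3:**
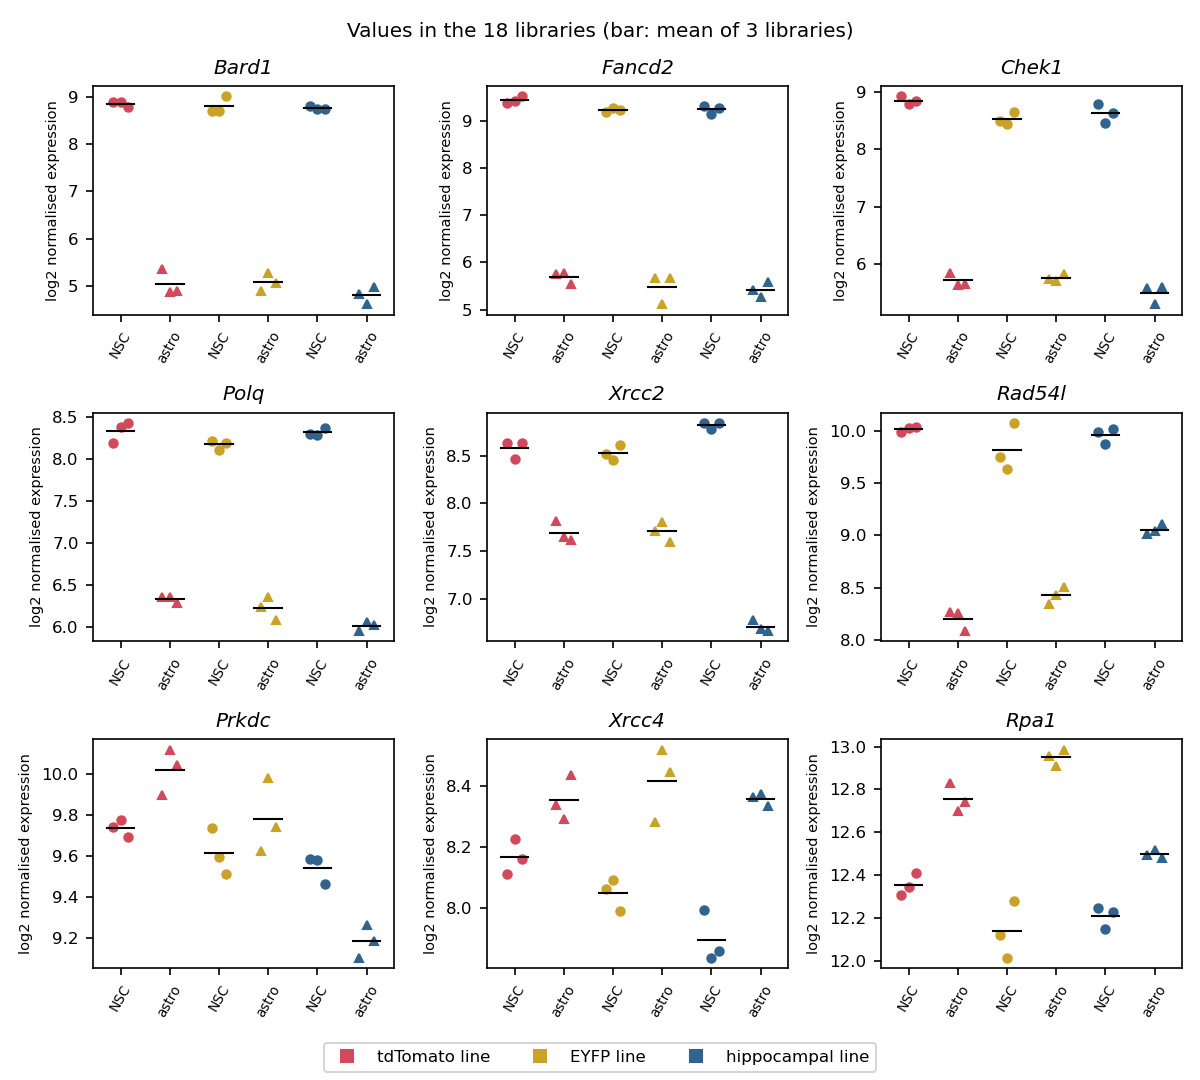
Log2 normalised expression of 9 repair genes in each of the 18 libraries, with NSCs as circles, astrocytes as triangles and the mean of 3 libraries as a bar, and with a scale of its own for each gene. Bard1, Fancd2, Chek1 and Polq separate the fates in each line, Xrcc2 and Rad54l differ between the astrocytes of different origin, and Prkdc rises in the tdTomato line and falls in the hippocampal line.

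The sequences around the RefSeq starts of the genes were compared next. RefSeq windows of 250 bases before to 50 bases after the start, on GRCm38.p6, were found for 40 of the 49 genes. RefSeq and GENCODE do not always place the start alike: 31 of the 40 windows hold the outermost GENCODE start, and 9 do not, among them that of Fancc, 65533 bases inside the GENCODE gene, and that of Xrcc6, 28534 bases inside. On both strands they were searched for E2F letters (TTTGGCGC, TTTCCCGC, TTTCGCGC or TTTGCCGC), for the cell cycle homology region (CHR, TTTGAA or TTCGAA) and for CCAAT, none of which lies within another. The E2F letters were in 7 of 40 windows (17.5%), against 2.3% of all 27025 promoters and 4.1% of those of genes tested here. They were in 4 of the 17 windows of genes that fell by at least 1 log2 unit (23.5%), in 2 of the 15 windows of genes that fell by less (13.3%) and in 1 of the 8 windows of genes not lower (12.5%). Over all genes lower by at least 1 log2 unit the share was 7.4%. CHR letters were in 3 of 40 windows (7.5%), against 19.4% of all promoters, 13.3% of those of genes tested and 20.8% of those of all genes lower by at least 1 log2 unit, and CCAAT was in 24 of 40 (60%), against 37.9% of all promoters and 39.1% of those of genes tested. CCAAT was in 11 of the 17 windows of the steep fallers (64.7%), in 11 of the 15 windows of genes that fell by less (73.3%) and in 2 of the 8 windows of genes not lower (25%), and in 45.2% over all genes lower by at least 1 log2 unit. Of the windows that hold the GENCODE start, 5 had E2F letters, 3 CHR letters and 20 CCAAT, and those of Xrcc6 and Rad51c, both with E2F letters, do not hold it. A match describes letters only and is not a bound site.

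The 5 windows below, 5′ to 3′ on the strand of the gene, show 3 genes that fell and hold E2F letters, 1 that holds them and had no call, and 1 that rose and holds none of the motifs. Capitals mark the matches, and distances are from the RefSeq start, which lies 174 bases inside the GENCODE gene for Bard1, 205 bases inside for Fancg, 4 bases inside for Chek2 and 9 bases outside for Brca2. The windows are at chr1:71102923-71103222 (minus strand) for Bard1, where E2F letters stand 209 bases and CHR letters 242 bases before the start, and at chr5:110839733-110840032 (plus strand) for Chek2, with E2F letters 152 bases before the start and CCAAT, in reverse, at 186 and 26 bases. For Brca2 the window is chr5:150522371-150522670 (plus strand), with E2F letters 168 bases before the start. For Fancg it is chr4:43010252-43010551 (minus strand), with E2F letters 52 bases before the start, and for Xrcc4 it is chr13:90089559-90089858 (minus strand).
Bard1: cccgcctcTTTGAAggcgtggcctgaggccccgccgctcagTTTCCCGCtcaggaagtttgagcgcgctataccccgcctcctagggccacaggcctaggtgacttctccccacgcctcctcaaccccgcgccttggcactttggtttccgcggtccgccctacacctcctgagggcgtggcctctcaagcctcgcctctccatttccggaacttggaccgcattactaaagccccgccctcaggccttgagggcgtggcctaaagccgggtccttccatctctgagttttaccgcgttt
Chek2: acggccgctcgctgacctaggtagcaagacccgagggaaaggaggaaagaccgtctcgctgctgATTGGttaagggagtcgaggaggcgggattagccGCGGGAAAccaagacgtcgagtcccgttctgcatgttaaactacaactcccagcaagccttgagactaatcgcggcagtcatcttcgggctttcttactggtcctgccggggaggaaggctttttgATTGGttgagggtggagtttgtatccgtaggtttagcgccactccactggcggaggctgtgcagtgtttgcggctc
Brca2: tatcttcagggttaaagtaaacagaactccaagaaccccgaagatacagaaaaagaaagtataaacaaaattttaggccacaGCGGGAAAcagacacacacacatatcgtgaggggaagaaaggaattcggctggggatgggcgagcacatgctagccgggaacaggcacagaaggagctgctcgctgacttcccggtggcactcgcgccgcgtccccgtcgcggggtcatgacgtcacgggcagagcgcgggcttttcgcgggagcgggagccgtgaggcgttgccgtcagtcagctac
Fancg: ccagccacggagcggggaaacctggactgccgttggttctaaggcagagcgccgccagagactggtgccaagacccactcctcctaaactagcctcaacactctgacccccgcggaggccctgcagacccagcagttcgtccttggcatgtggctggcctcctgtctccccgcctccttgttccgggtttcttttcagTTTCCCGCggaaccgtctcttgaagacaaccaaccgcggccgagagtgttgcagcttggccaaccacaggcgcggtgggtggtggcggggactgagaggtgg
Xrcc4: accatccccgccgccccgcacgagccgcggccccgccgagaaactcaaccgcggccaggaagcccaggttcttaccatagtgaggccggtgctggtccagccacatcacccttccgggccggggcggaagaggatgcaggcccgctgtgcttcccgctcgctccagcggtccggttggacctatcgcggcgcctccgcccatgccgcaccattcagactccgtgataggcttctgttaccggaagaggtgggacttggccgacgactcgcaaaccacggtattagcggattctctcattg
Bard1 and Fancg hold the same 8 letters, TTTCCCGC, in the same direction. Their changes were -3.84 and 0.04. By the GENCODE starts the positions are unlike: the letters lie before the gene for Bard1 and inside it for Fancg. The part of these letters in either change was not tested.

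Many of the repair genes share their start region with a gene on the other strand. For 17 of the 49 a protein-coding gene starts within 1000 bases on the other strand (GENCODE M21), and for 16 of these the partner was tested. Fancd2 and Emc3 start 30 bases apart, and Emc3, a membrane protein gene, changed by 0.08 where Fancd2 changed by -3.78. Brca1 and Nbr1, an autophagy receptor gene, start 194 bases apart and changed by -2.76 and 0.55. Rad51ap1 (-3.34) and D6Wsu163e (0.80), 375 bases apart, also moved in opposite directions, as did Rad51b (-1.74) and Zfyve26 (0.57), 978 bases apart, and Chek2 (-1.34) and Hscb (0.24), 202 bases apart. In 6 of the 16 pairs the repair gene was called lower and its partner higher (39.8% and 42.1% of all genes were lower and higher). Of those 6 partners, Emc3 (adjusted p = 0.679 in tdTomato and 0.381 in EYFP, limma), Dctn5 (0.315 in EYFP), beside Palb2, and Hscb (0.0849 in EYFP and 0.208 in hippocampal cultures) were not called in each line alone. In 7 both were called lower (39.8% of all genes were lower): Fancb (-2.55) with Mospd2 (-0.23), Rad54l (-1.37) with Pomgnt1 (-0.18), Mre11a (-0.64) with Ankrd49 (-0.21), Atm (-0.53) with Npat (-0.23) and Xrcc3 (-0.53) with Zfyve21 (-0.18), and the pairs of Fancf and Lig4. Of these partners, Ankrd49 (adjusted p = 0.0807 in tdTomato and 0.129 in EYFP, limma), Mospd2 (0.0501 in EYFP) and Zfyve21 (0.214 in hippocampal cultures) were not called in each line alone.

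In the other 3 pairs the repair gene did not fall and its partner did. Prkdc starts 466 bases from Mcm4, a subunit of the replicative helicase, and Mcm4 changed by -1.71 (standard error 0.06) while Prkdc changed by 0.03 (95% confidence interval -0.14 to 0.20). In the hippocampal line, the pair changed by -1.72 and -0.36. Rpa1 rose by 0.50 while Smyd4, 109 bases away, changed by -0.69, and Xrcc4 rose by 0.34 while Tmem167, 485 bases away, changed by -0.59. Of the pairs that were both lower, Fancf (-0.72) and Gas2 (-0.64), 252 bases apart, share 253 exon bases on opposite strands. Mre11a and Ankrd49 share 154. Lig4 (-0.22) and Abhd13 (-0.30) start 21 bases apart.

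**Figure D4:**
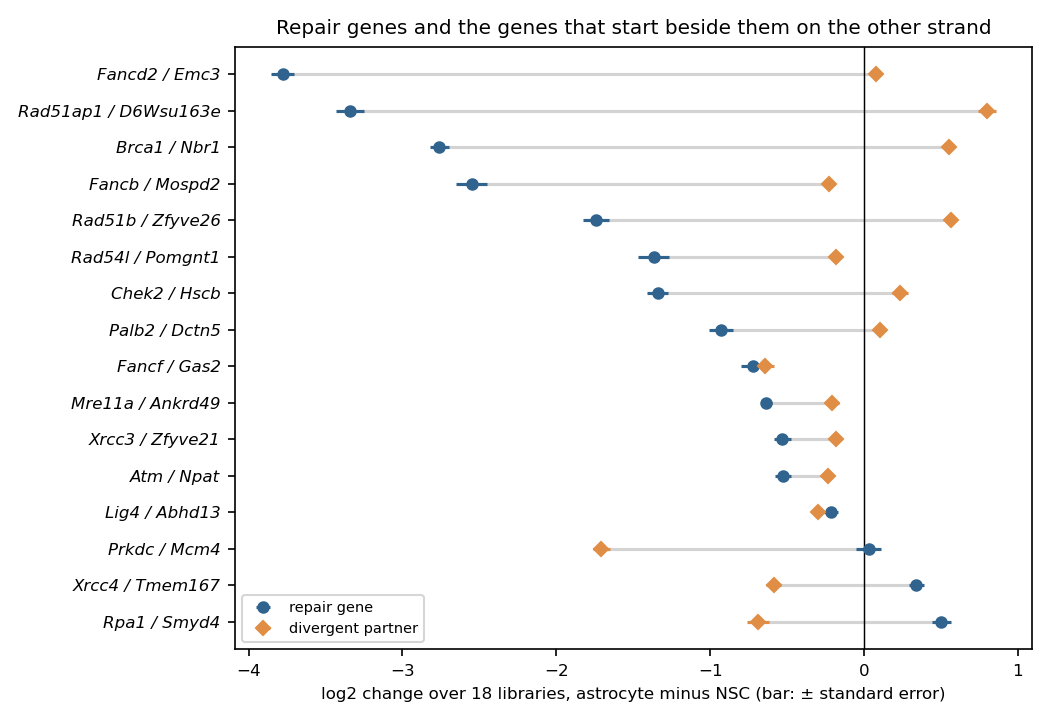
Log2 change over 18 libraries of 16 repair genes (circles) and of the gene that starts within 1000 bases on the other strand (diamonds), with ± 1 standard error as bars. The pairs run from Fancd2 and Emc3 (-3.78 and 0.08) to Rpa1 and Smyd4 (0.50 and -0.69).

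Genes of these routes outside the list were also divided. Of 44 further Fanconi, recombination and end-joining genes tested, 24 were lower and 10 higher, with a median change of -0.13. For this and the following lists the shares over all genes were 39.8% lower and 42.1% higher. Those that fell furthest were Uhrf1 (-4.27), which reads hemimethylated DNA, and Rmi2 (-4.03), which works with Blm. Those that rose most were Fan1 (0.57), a nuclease of cross-link repair, and Zswim7 (0.51). In nucleotide excision repair 11 of 22 were lower and 5 higher (median -0.09), in base excision repair 13 of 18 lower and 3 higher (median -0.62), and in damage signalling 15 of 18 lower and 1 higher (median -0.77). The replication genes resembled the recombination genes, with 38 of 40 lower, 1 higher and a median of -1.62. Of 18 E2F, MuvB and Rb family genes, 15 were lower and 2 higher, with E2f8 at -5.37 and the repressor Rbl2 at 0.79.

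Each line gave much the same picture on its own. In the tdTomato line 39 of the 49 were lower and 4 higher (39.5% and 39.9% of all genes tested), in the EYFP line 38 lower and 3 higher (37.4% and 37.5%), and in the hippocampal line 42 lower and 3 higher (38.2% and 39.2%). In all 3 lines 38 genes were lower, where 28.9% of the 14211 genes tested in each line were, and 2 were higher (28% of all). Ercc1, Fance, Fancg and Nhej1, 4 in all, had no call in any line (6.99% of all). Without hippocampal astrocyte replicate 1, Ercc1 was called higher in the hippocampal line (0.25, adjusted p = 0.00448, limma). Of the 38, Rad51d lost its EYFP call in 5 of the 6 fits without 1 library, all but that without EYFP astrocyte replicate 3, and in 4 other fits (adjusted p = 0.0528 to 0.134, limma). Fancm lost its EYFP call without replicate 1 or 3 of either EYFP group and in 3 other fits (adjusted p = 0.0535 to 0.0868, limma). The 4 higher in the tdTomato line became 2 without tdTomato NSC replicate 1, tdTomato NSC replicate 3 or tdTomato astrocyte replicate 3. In each of these fits Xrcc4 and Trp53bp1 lost their calls. Across the 49 genes, Pearson's r between the changes was 0.991 for tdTomato against EYFP, and the hippocampal changes had an r of 0.959 with the tdTomato and 0.969 with the EYFP line. These correlations are across genes, which are not independent.

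Opposite calls in different lines were made for 2 genes, both of end joining, where 5.68% of all genes tested had them. Prkdc, the catalytic subunit of the DNA-dependent kinase that Ku recruits, lies on chromosome 16 from 15637866 to 15842235. Its NSC values were 9.74, 9.77 and 9.69 in tdTomato, 9.73, 9.60 and 9.51 in EYFP and 9.59, 9.58 and 9.46 in hippocampal cultures. Its astrocyte values were 9.89, 10.12 and 10.04, 9.62, 9.98 and 9.74, and 9.10, 9.26 and 9.18. It was thus higher in all tdTomato astrocytes and lower in all hippocampal astrocytes than in the NSCs of the line, and the fates overlapped in the EYFP line. The changes were 0.28 (adjusted p = 0.00233, limma) in tdTomato, 0.17 (adjusted p = 0.132) in EYFP and -0.36 (adjusted p = 0.000416) in hippocampal cultures. Without EYFP astrocyte replicate 1 the EYFP change was 0.25 (adjusted p = 0.0428, limma).

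Trp53bp1, on chromosome 2 from 121193281 to 121271407, moved in the same sense by much less. It was at 11.16, 11.15 and 11.17 in tdTomato, 11.17, 11.16 and 11.17 in EYFP and 11.27, 11.23 and 11.24 in hippocampal NSCs, and in astrocytes at 11.21, 11.28 and 11.35, at 11.24, 11.39 and 11.31, and at 11.03, 11.18 and 11.16. Every traced astrocyte library lay above, and every hippocampal one below, the NSCs of its line. The changes were 0.12 (adjusted p = 0.0363, limma), 0.14 (adjusted p = 0.0208) and -0.13 (adjusted p = 0.0346), and each of these calls was lost in several fits. With limma without a trend the adjusted p was 0.0819, 0.0546 and 0.0843. The tdTomato call was lost without any 1 of 5 of its 6 libraries, the EYFP call without any 1 of 4 and the hippocampal call without any 1 of 4. Trp53bp1 shares 2130 of its 14164 exon bases with Tubgcp4 on the other strand, whose changes were -0.28, -0.14 and -0.18.

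The size of the change differed between origins for 18 of the 49 genes, where 46.2% of all genes tested differed (interaction of traced against hippocampal lines over 18 libraries). In 10 the traced change was the higher one (20.3% of all genes) and in 8 the lower (25.9%). That split depended on the scaling: it was 14 higher and 3 lower after median centring (26.2% and 20.5% of all genes) and 17 and 2 after quantile normalization (25.2% and 21.8%), which moved the median difference of all genes from -0.03 to 0.05 and 0.03. The 3 largest differences were all in recombination genes. Xrcc2, a paralogue of the recombinase on chromosome 5 from 25689812 to 25705825, was at 8.63, 8.47 and 8.63 in tdTomato, 8.51, 8.46 and 8.61 in EYFP and 8.84, 8.78 and 8.84 in hippocampal NSCs. In astrocytes it was at 7.81, 7.65 and 7.62, at 7.71, 7.81 and 7.60, and at 6.78, 6.68 and 6.66. The hippocampal line was the highest as NSCs and the lowest as astrocytes, without overlap in either fate. Xrcc2 kept 54.1% and 56.6% of the NSC level in the traced lines and 23.2% in the hippocampal line, an interaction of 1.26 (standard error 0.09, adjusted p = 9.19e-09, limma).

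Rad54l went the other way. This translocase gene, on chromosome 4 from 116094264 to 116123690, was at 9.98, 10.03 and 10.04 in tdTomato, 9.75, 9.63 and 10.07 in EYFP and 9.99, 9.87 and 10.01 in hippocampal NSCs. In astrocytes it was at 8.27, 8.26 and 8.09, at 8.35, 8.43 and 8.50, and at 9.01, 9.04 and 9.11. The NSC values of the lines overlapped, and every hippocampal astrocyte library lay above every traced one. The interaction was -0.70 (standard error 0.10, adjusted p = 3e-05, limma). Rad54l shares 1184 of its 7706 exon bases with Lrrc41 on the other strand, which changed by -0.24, -0.21 and -0.01 in the tdTomato, EYFP and hippocampal lines. The part of that overlap was not tested.

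Exo1, on chromosome 1 from 175880581 to 175913489, was at 9.84, 9.76 and 9.86 in tdTomato, 9.01, 8.98 and 9.45 in EYFP and 9.21, 9.05 and 9.15 in hippocampal NSCs, and in astrocytes at 6.30, 5.80 and 5.95, at 6.05, 5.54 and 5.48, and at 6.62, 6.12 and 5.79. The tdTomato NSCs stood highest, and the astrocytes of the lines overlapped. Its interaction of -0.67 (adjusted p = 0.0241, limma) was lost after quantile normalization (-0.55, adjusted p = 0.0799), without hippocampal NSC replicate 2 (-0.63, adjusted p = 0.0594) and without hippocampal astrocyte replicate 1 (-0.45, adjusted p = 0.0993). The interaction was 0.58 for Prkdc (adjusted p = 0.000119, limma) and 0.26 for Trp53bp1 (adjusted p = 0.00116). Of the other genes, the traced change was the higher for Rad51c, Blm, Polq, Rpa1, Brca2, Atr and Fancm, by 0.25 to 0.52, and the lower for Chek2, Rad52, Rpa2, Msh6, Xrcc5 and Lig3, by 0.16 to 0.34. Several of these were near the threshold. The call of Rpa2 was lost in 11 of the 18 fits without 1 library and in 4 other fits (adjusted p = 0.0501 to 0.127, limma), and that of Atr in 9 of 18 and in 2 others (0.0524 to 0.0956). Rad52, Msh6, Xrcc5 and Lig3 had no call after median centring or quantile normalization (adjusted p = 0.0576 to 0.142). Lig3 shares 1826 of its 7284 exon bases with Rffl on the other strand, which changed by 0.04, 0.07 and 0.61 in the tdTomato, EYFP and hippocampal lines.

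**Figure D5:**
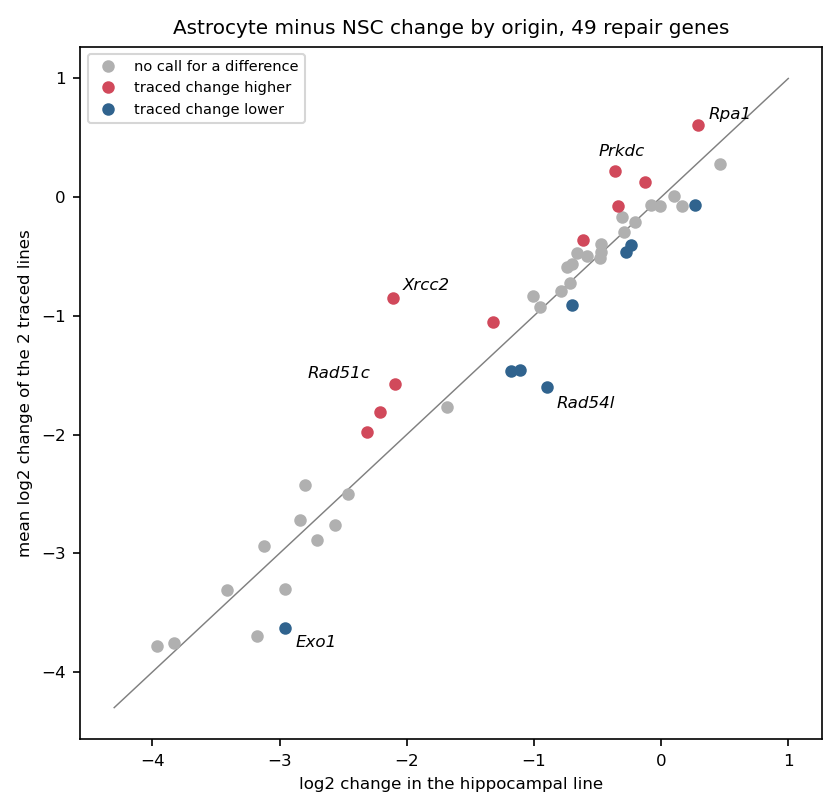
Log2 change from NSC to astrocyte in the hippocampal line (x axis) against the mean change of both traced lines (y axis) for the 49 genes, coloured where the interaction passed the threshold. The diagonal marks equal change, with Xrcc2 (1.26) farthest above it and Rad54l (-0.70) and Exo1 (-0.67) farthest below.

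Fewer genes were called for origin among NSCs than among astrocytes, in the whole table as in the repair genes, whose share was below that of all genes in both fates. These fits pool the traced lines, so the difference between them counts as spread. The traced lines differed in 33.2% of all genes tested among NSCs and in 11.2% among astrocytes. The counts therefore cannot show in which fate the origins were more alike. Among NSCs, 4 of the 49 genes had a call for origin (19.4% of all genes tested had one, 10.6% higher and 8.81% lower in traced NSCs): Ube2t was higher by 0.53 and Rad52 by 0.29 in traced NSCs, and Xrcc2 was lower by 0.27 and Lig3 by 0.15. Without hippocampal NSC replicate 1 or 3 the count was 2, since Xrcc2 (-0.25 and -0.26, adjusted p = 0.0552 and 0.0549, limma) and Rad52 (0.27 and 0.29, adjusted p = 0.136 and 0.115) lost their calls. Rad52 lost it in 8 of the 9 fits without 1 library and in 4 others (adjusted p = 0.0532 to 0.136, limma). Among astrocytes, 17 differed (52% of all genes tested), 13 higher and 4 lower in the traced lines (24.1% and 27.9% of all genes). The split was 18 and 3 after median centring (27.6% and 24.5% of all genes) and 19 and 4 after quantile normalization (28.2% and 24.6%). Polq lost its call in 8 of the 9 fits without 1 library and Xrcc5 in 6. The 17 included Xrcc2 (0.99), Prkdc (0.72) and Rad51c (0.46) among the higher, and Rad54l (-0.74) and Lig3 (-0.31) among the lower. Beside these, the proliferation markers had a median difference of 0.02 between traced and hippocampal astrocytes, with 1 of 8 lower.

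Between the traced lines, 17 of the 49 genes differed among NSCs, a share close to the 33.2% of all genes tested, and 16 were higher and 1 lower in the tdTomato line (18% and 15.2% of all genes), with a median difference of 0.17. The largest differences were those of Exo1 (0.67), Fancb (0.43) and Fanca (0.40), and Xrcc5 (-0.20) was the lower one. Fanca (adjusted p = 0.0509 to 0.104, limma) and Fancb (0.0521 to 0.083) each lost the call without a filter and in 4 of the 6 fits without 1 library. Of the 40 replication genes 29 were higher in the same comparison, with a median of 0.30, and of the 8 proliferation markers 1. The part of cell cycle state in these differences was not tested. The count of 17 fell to 8 without tdTomato NSC replicate 2 or EYFP NSC replicate 1, to 9 without tdTomato NSC replicate 3 and to 11 without EYFP NSC replicate 2.

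Among astrocytes, Xrcc5 (-0.33) and Rpa1 (-0.19) were lower in the tdTomato than in the EYFP line (2 of 49, where 11.2% of all genes tested differed, 5.63% lower and 5.6% higher). The count was 1 without tdTomato astrocyte replicate 2 or 3 or EYFP astrocyte replicate 1 or 3. The change from NSC to astrocyte differed between the traced lines for 5 genes (13.3% of all genes tested, 6.98% lower and 6.36% higher), in each with the lower change in the tdTomato line: Rad54l (-0.42), Rpa1 (-0.41), Msh6 (-0.40), Nbn (-0.35) and Xrcc6 (-0.23). Beside them, 18 of the 40 replication genes were lower, with a median of -0.36. Rad54l lost this call in 6 of the 18 fits without 1 library and Xrcc6 in 7. The count was 3 without tdTomato NSC replicate 2 or 3, EYFP NSC replicate 1 or 2 or tdTomato astrocyte replicate 3, and 9 without EYFP NSC replicate 3. It was also 9 in a fit with the replicate number as a block.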

How the data were processed

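RNA-seq of 18 libraries was used, 3 per line and fate. According to the labels' tool list and the paper's methods, the authors trimmed with Trimmomatic (0.36), aligned with STAR to GRCm38 (Ensembl annotation), estimated counts with RSEM and normalised with DESeq2 (1.18.1). The deposited values are log2 normalised expression from the authors. The transform is not named. The values look like a regularised log, which pulls weakly expressed genes together and so understates their changes. The labels state a minimum of 25000000 single-end reads, each of 76 bases, for every library. The depth each library reached cannot be read from the values, so no counting error is given. The labels and the methods name different library kits.

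Changes were tested with limma (3.58.1, R 4.3.3) with a variance trend on the deposited values, and a gene was kept if 3 libraries of the comparison reached 3.32 (a linear value of 10). The 49 genes passed in every comparison. Adjustment was by Benjamini-Hochberg over all genes tested, at 0.05. The fit over all lines had line as a covariate, each line was fitted alone, and differences of change were contrasts of 6 group means. Symbols were found for 27887 genes. Overlaps, shared 75-base stretches and divergent starts came from GENCODE M21, and promoters from RefSeq (GRCm38.p6). The fits were tested on simulated data. Values in every library are given for the genes with the largest fall and the largest rise or smallest fall of each route, for those with opposite calls and for the 3 with the largest difference between origins. Genes, lists and routes were chosen with earlier results of these data known. Alternatives were no filter or 100 on the linear scale, pseudocounts of 1 and 10, median centring, quantile normalization, no trend, group means, the replicate number as a block, and each library left out in turn.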

Additional observations from a re-analysis of the deposited data

Results flagged for a closer look

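The change from NSC to astrocyte differed between the 2 traced lines and the hippocampal line, by a test of the difference itself (interaction, limma), for 18 of the 49 genes, a smaller share than the 46.2% of all genes tested. The split of 10 higher and 8 lower became 14 and 3 after median centring and 17 and 2 after quantile normalization. The traced change was higher by 1.26 for Xrcc2, 0.58 for Prkdc, 0.52 for Rad51c, 0.40 for Blm, 0.34 for Polq, 0.32 for Rpa1, 0.27 for Brca2, 0.26 for Atr, 0.26 for Trp53bp1 and 0.25 for Fancm. It was lower for Rad54l (-0.70), Exo1 (-0.67), Chek2 (-0.34), Rad52 (-0.33), Rpa2 (-0.28), Msh6 (-0.21), Xrcc5 (-0.19) and Lig3 (-0.16). After quantile normalization Exo1, Rad52, Rpa2, Msh6, Xrcc5 and Lig3 had no call (adjusted p = 0.0576 to 0.112, limma), and Rpa2 and Atr lost theirs in 11 and 9 of the 18 fits without 1 library. With 1 line of hippocampal cells, origin and line cannot be told apart in these differences.

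The change differed between the tdTomato and EYFP lines, by the same kind of test, for Rad54l (-0.42), Rpa1 (-0.41), Msh6 (-0.40), Nbn (-0.35) and Xrcc6 (-0.23). These are 5 of the 49 genes, where 13.3% of all genes tested differed, and Rad54l and Xrcc6 lost the call in 6 and 7 of the 18 fits without 1 library.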

How the results depend on the processing

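Over all lines, the counts of 40 lower and 2 higher genes were the same without any 1 of the 18 libraries, and with a threshold of at least 1 log2 unit they were 21 and 0 (the unadjusted p was under 0.05 for both rises). Leaving out 1 library at a time gave 38 to 39 lower and 2 to 4 higher in the tdTomato line, 35 to 38 and 2 to 4 in the EYFP line and 40 to 42 and 3 to 4 in the hippocampal line. It gave 15 to 21 and 3 to 9 genes whose change differed between origins and between the traced lines. It gave 2 to 4 and 12 to 18 genes that differed between traced and hippocampal NSCs and astrocytes, and 8 to 24 and 1 to 3 between tdTomato and EYFP NSCs and astrocytes. Without a filter, 11 genes (of 17) differed between tdTomato and EYFP NSCs, 1 (of 2) between their astrocytes and 3 (of 5) in their change, and without a trend 1 differed between their astrocytes. The change of Ercc1, which had no call, ran from -0.0215 to 0.0353 and became negative without hippocampal NSC replicate 1 or 2, tdTomato astrocyte replicate 1 or hippocampal astrocyte replicate 2 or 3. That of Prkdc ran from -0.0085 to 0.0689 and became negative without replicate 2 of the tdTomato or of the EYFP astrocytes. Nhej1 was called lower after quantile normalization (-0.24, adjusted p = 0.0209, limma) and was below the filter of 100 on the linear scale. Blocking on the replicate number, 2 genes (of 4) were higher in the tdTomato line and 9 (of 5) changed differently in the traced lines. In the tdTomato line Xrcc4 (0.19, adjusted p = 0.0695, limma) then had no call. Between traced and hippocampal astrocytes Xrcc5 (adjusted p = 0.061) and Polq (0.0505) lost and Rad51d (0.0256) and Rpa2 (0.0401) gained one, and Prkdc gained one between the traced astrocytes (0.24, adjusted p = 0.00626). Same-numbered libraries of 1 fate had a mean correlation of deviations of 0.106 (18 pairs, 0.012 to 0.313, 9 over 0.1) and those of 1 line -0.023 (9 pairs). Since not every pair was over 0.1, the numbers were not taken as pairs, although 17 of 18 libraries were closest to their own number among the other lines of their fate. The cause of these shifts was not tested. The depth each library reached is not in the values, and weakly expressed genes are the least certain.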
